A study of Mus musculus with 18 samples.

Results

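The genes described here are 43 genes of mouse DNA repair, the Fanconi anemia pathway and the DNA damage checkpoint, followed over all groups of a study of leukemia and normal blood progenitor cells. They were chosen by name, and a gene was measured when a probe set of the array named it and no other gene. Such a probe set existed for 39 of the 43, and all 39 passed the filter on low values, among 16337 genes tested and 22180 genes with a probe set. Rad54b and Fanca lay only on probe sets shared with another gene, Xrcc2 and Rbbp8 were not listed in the probe table, and these 4 were not analysed here. The leukemia cells were GFP+ acute myeloid leukemia (AML) cells from the marrow of mice with MLL-AF9 leukemia, a disease driven by a fusion of the Mll and Af9 genes. Their normal counterparts were marrow cells without lineage markers and with Kit and Sca1 on their surface (LSK), a fraction rich in blood stem cells and progenitors. Both were sorted, per the labels, from 4F mice, which carry doxycycline (Dox) inducible Oct4, Sox2, Klf4 and c-Myc (OSKM), and were treated in culture for 24 h. The groups were AML cells given Dox, AML cells given the compound cocktail, untreated AML cells, LSK cells given Dox, LSK cells given the cocktail and untreated LSK cells, with 3 arrays each. The cocktail held VPA, which inhibits histone deacetylases, CHIR, which inhibits the kinase GSK3, 616452, which blocks the TGF-beta type I receptor, and TCP, which inhibits the demethylase LSD1. All groups therefore share the transgenes, and no group without them received Dox. The strain, age and number of the mice, the promoter of the transgenes and the doses were not stated in the sources used here. A group's arrays carry the name biological repeats with no word on whether animals or cultures were separate, and p-values therefore cover only the scatter among these arrays.

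Cells repair broken and damaged DNA by several routes. Homologous recombination copies the sister chromatid and is used mainly in S and G2 phase, after the break has been sensed and its ends resected. The Fanconi pathway unhooks DNA crosslinks: a core complex attaches ubiquitin to Fancd2 and Fanci, which then direct cutting and recombination. Mismatch repair corrects replication errors, and base and nucleotide excision repair remove damaged bases and bulky lesions. The kinases Atr and Atm sense stalled forks and breaks and signal through Chek1 and Chek2 to hold the cell cycle. Many of these genes are transcribed mostly in dividing cells, and hematopoietic stem cells are known to be sensitive to loss of the Fanconi pathway.

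Values are log2 expression as deposited, so a difference of 1 is a change of 2-fold. Of the 18 arrays, 17 had pairwise correlations of 0.904 to 0.989 over the probe sets. The array of LSK Compound replicate 1 correlated with them at 0.638 to 0.672, with an SD of 1.45 against 2.01 to 2.08 on the other 17, and it is left out here, so LSK Compound has 2 arrays. Those 2 arrays also read the Y-linked Eif2s3y at 5.20 and 5.47, against 1.5 to 2.64 on the other 15, and Xist at 7.32 and 7.35, against 9.28 to 9.77 on the LSK Dox and LSK Control arrays, so the treatment and the source of the cells cannot be told apart in LSK Compound against LSK Control. On the 9 AML arrays Xist read 2.34 to 3.01. In any difference between AML and LSK cells, cell type and source of the cells therefore cannot be told apart either. The 6 measured markers of LSK cells had a mean level of 4.86 to 4.91 in AML Control arrays and 6.27 to 6.35 in LSK Control arrays, where Cd34 (10.10), Kit (7.71) and Flt3 (7.38) were bright and Mecom (4.62), Hlf (4.29) and Procr (3.79) were not. The 8 markers of AML cells and granulocyte-monocyte progenitors averaged 8.78 to 8.83 in AML Control arrays and 7.73 to 7.88 in LSK Control arrays, which also read Mpo at 9.16 and the neutrophil gene S100a8 at 8.93. In bulk RNA, fewer cells of a type and less RNA per cell cannot be told apart.

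Most of the repair genes were lower in AML cells given Dox, in which Dox itself and the OSKM it induces cannot be told apart. Relative to AML Control, 32 of the 39 were lower in AML Dox and 2 were higher at an adjusted p under 0.05 (limma, adjusted over all genes tested), where 25.6% of all genes tested were lower and 23% were higher (48.6% in either direction). The median change was -1.36 on the log2 scale, against -0.01 over all genes. Of the members 27 were called lower by at least 2-fold, beside 1675 of the 16337 genes tested. For 32 genes every AML Dox array lay below every AML Control array, as was the case for 29.4% of all genes. All 7 checkpoint genes and all 8 homologous recombination genes were lower, and so were 5 of 6 genes of break sensing, resection and alternative end joining, both mismatch repair genes, 5 of 6 excision repair genes and 5 of 10 Fanconi genes. The map of changes of all 39 genes shows this column as the darkest.

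**Figure D1:**
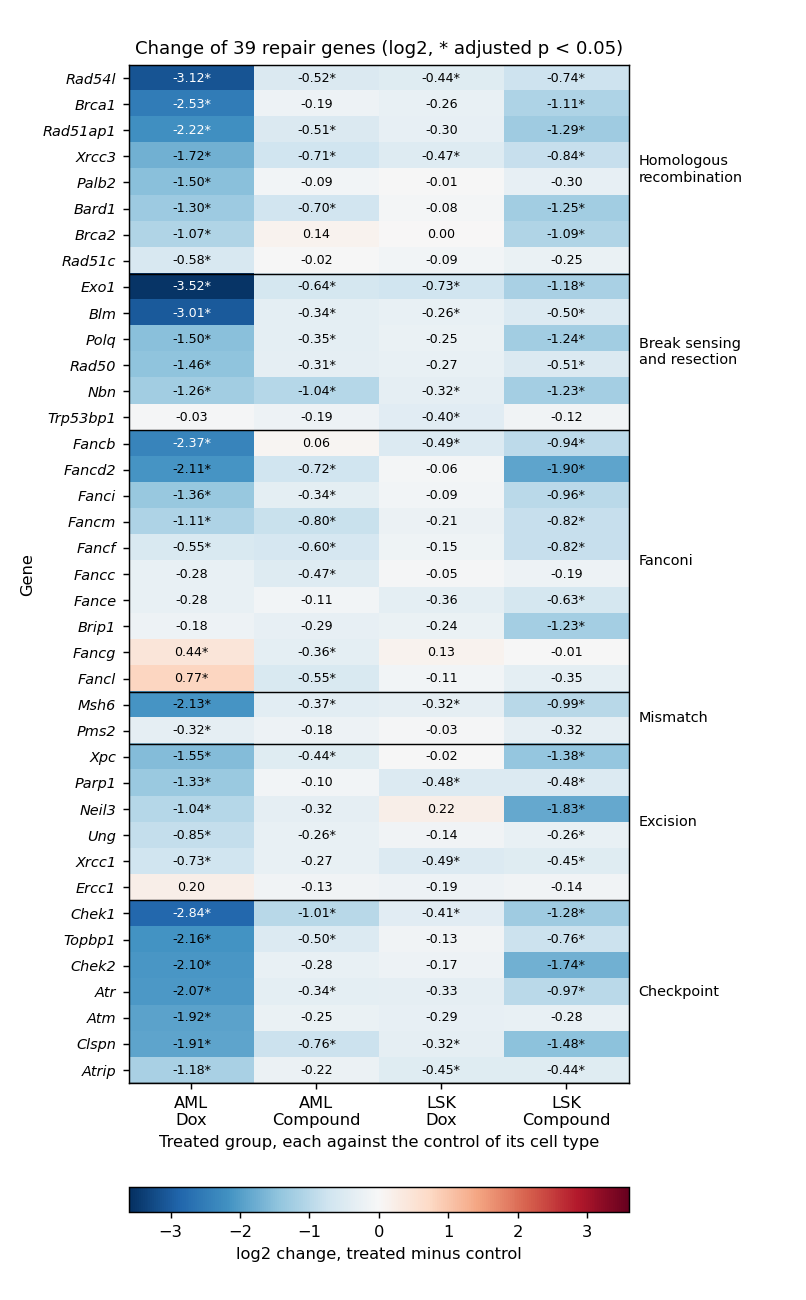
Each row is 1 of the 39 repair genes, ordered by role and then by the change in AML Dox, and each column is a treated group against the control of its cell type. Colour and number give the log2 change, and a star marks an adjusted p under 0.05. AML Dox holds the deepest falls, down to -3.52 for Exo1, and the only rises that passed the test, for Fancl and Fancg.

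Among the break-processing genes, Exo1 and Blm fell most. Exo1, a nuclease that resects break ends and also serves mismatch repair, read 3.53, 3.72 and 3.26 in AML Dox arrays, 6.31, 6.47 and 6.39 in AML Compound arrays and 6.99, 7.09 and 6.99 in AML Control arrays. Its AML Dox arrays lay far below all others, a fall of 11.5-fold against AML Control (log2 -3.52, SE 0.11, adjusted p = 4.84e-14). Blm, the helicase lost in Bloom syndrome in humans, read 4.59, 4.67 and 4.53 in AML Dox arrays and 7.55, 7.69 and 7.57 in AML Control arrays, with no overlap (log2 -3.01, SE 0.08, adjusted p = 1.08e-14). Rad50, the coiled-coil subunit of the complex that tethers broken ends, was at 6.03, 6.21 and 6.30 in AML Dox arrays and at 7.69, 7.63 and 7.60 in AML Control arrays, again with no overlap (log2 -1.46, SE 0.10, adjusted p = 6.79e-10). Nbn, a partner of Rad50 in that complex, was lower by 1.26 on the log2 scale, and Polq, the polymerase of alternative end joining, by 1.5. The exception was Trp53bp1, which shields break ends from resection: it read 5.77, 5.96 and 5.87 in AML Dox arrays and 5.81, 5.99 and 5.90 in AML Control arrays. These groups overlapped, with a log2 difference of -0.03 and a 95% confidence interval of -0.22 to 0.16.

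The recombination genes fell over a wide range, with a median of -1.61. Rad54l, a motor protein of strand invasion, read 3.24, 3.30 and 3.18 in AML Dox arrays and 6.41, 6.32 and 6.34 in AML Control arrays. All AML Dox arrays were far below all AML Control arrays, an 8.69-fold fall (log2 -3.12, SE 0.10, adjusted p = 7.41e-14). Rad51ap1, an accessory factor of strand invasion, was at 3.26, 3.04 and 3.34 in AML Dox arrays and at 5.45, 5.42 and 5.44 in AML Control arrays. All AML Dox arrays were lower, by 2.22 on the log2 scale (SE 0.10, adjusted p = 7.48e-12). Xrcc3, which acts in strand exchange, read 4.89, 4.75 and 4.71 in AML Dox arrays and 6.63, 6.26 and 6.62 in AML Control arrays, a fall of 3.29-fold (adjusted p = 1.94e-10). Brca1, the ubiquitin ligase subunit that promotes resection, varied most within the AML Dox group, at 4.37, 3.62 and 3.38 against 6.14, 6.35 and 6.46 in AML Control arrays, and was 5.76-fold lower (SE of the log2 change 0.19, adjusted p = 3.53e-09). Its partner Bard1 was lower by 1.30 and Palb2, which links Brca1 to Brca2, by 1.5. Brca2, a mediator of strand exchange, was lower by 1.07, and the smallest fall was that of Rad51c, at -0.58 (adjusted p = 0.00117).

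The Fanconi genes divided. Fancd2, the protein that receives the ubiquitin, read 5.0, 5.0 and 4.82 in AML Dox arrays and 7.05, 7.02 and 7.08 in AML Control arrays, so that it was 4.32-fold lower with no overlap (log2 -2.11, SE 0.09, adjusted p = 1.92e-12). Its partner Fanci was at 3.40, 3.43 and 3.56 in AML Dox arrays and at 4.85, 4.85 and 4.77 in AML Control arrays (log2 -1.36, SE 0.08, adjusted p = 1.59e-10). Fancb, an X-linked core complex subunit, read 2.11, 2.49 and 1.90 in AML Dox arrays and 4.52, 4.37 and 4.71 in AML Control arrays. On 2 of its 3 AML Dox arrays Fancb was under the filter level of 2.32 to 2.41. Its log2 change of -2.37 (SE 0.15, adjusted p = 4.08e-10) became -2.11 with such values set to that level. Fancm, the translocase that recruits the core complex, was lower by 1.11 and Fancf, a core adaptor, by 0.55. In contrast, Fancl, the ubiquitin ligase of the core complex, read 5.62, 5.37 and 5.53 in AML Dox arrays and 4.86, 4.83 and 4.52 in AML Control arrays. Every AML Dox array lay above every AML Control array, a rise of 1.70-fold (log2 0.77, SE 0.12, adjusted p = 2.32e-05). Fancg, another core subunit, was at 5.22, 5.24 and 5.31 in AML Dox arrays and at 4.71, 5.13 and 4.59 in AML Control arrays. The AML Control array of replicate 2 came close to the AML Dox arrays, and the rise was 0.44 (adjusted p = 0.00983). Without AML Control replicate 3 it was 0.33 with an adjusted p of 0.0651, so that 1 gene in place of 2 was called higher. Fancc, Fance and Brip1, the last a helicase that binds Brca1, had log2 changes of -0.28, -0.28 and -0.18 and did not pass the test.

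The checkpoint genes had the lowest median of any role, at -2.07 with a range of -2.84 to -1.18. Chek1, the effector kinase of Atr, read 3.82, 3.56 and 3.26 in AML Dox arrays and 6.37, 6.41 and 6.36 in AML Control arrays. The AML Control arrays were close together and far above the AML Dox arrays, a fall of 7.14-fold (log2 -2.84, SE 0.13, adjusted p = 4.09e-12). Topbp1, the activator of Atr, was at 6.74, 6.67 and 6.59 in AML Dox arrays and at 8.76, 8.80 and 8.93 in AML Control arrays (log2 -2.16, SE 0.09, adjusted p = 3.05e-12). Chek2, the effector kinase of Atm, read 3.82, 3.89 and 4.20 in AML Dox arrays and 5.98, 6.07 and 6.17 in AML Control arrays, without overlap (log2 -2.10, SE 0.10, adjusted p = 1.66e-11). The kinases Atr and Atm themselves were lower by 2.07 and 1.92, Clspn, the adaptor between Atr and Chek1, by 1.91, and Atrip, the partner of Atr, by 1.18. Atr was the only member with another probe set of its own, which read 2.50 to 2.78 in AML Dox arrays and 2.40 to 2.65 in AML Control arrays, near the filter level in both.

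In mismatch repair, Msh6, which recognises base mismatches, read 4.10, 4.25 and 4.30 in AML Dox arrays and 6.40, 6.41 and 6.24 in AML Control arrays, a 4.38-fold fall with no overlap (adjusted p = 7.58e-12). Pms2, the endonuclease subunit, was dim throughout, at 3.02, 2.68 and 3.05 in AML Dox arrays and 3.35, 3.17 and 3.17 in AML Control arrays. Its fall of 0.32 (adjusted p = 0.0328) lost its call without AML Control replicate 1 (-0.25, adjusted p = 0.131) and without AML Dox replicate 2 (-0.20, adjusted p = 0.194). Among the excision genes, Parp1, which marks strand breaks with poly(ADP-ribose), was at 6.57, 6.72 and 6.72 in AML Dox arrays and at 7.93, 7.92 and 8.13 in AML Control arrays, all AML Dox arrays lying below (log2 -1.33, SE 0.09, adjusted p = 1.01e-09). Xpc, the damage sensor of nucleotide excision repair, read 4.78, 4.79 and 4.89 in AML Dox arrays and 6.11, 6.71 and 6.30 in AML Control arrays (log2 -1.55, SE 0.13, adjusted p = 2.10e-08). Ung, which removes uracil from DNA, was at 3.28, 3.36 and 3.39 in AML Dox arrays and at 4.31, 4.17 and 4.11 in AML Control arrays (log2 -0.85, SE 0.09, adjusted p = 1.45e-07). For both genes the groups did not overlap. Neil3, a glycosylase, was lower by 1.04 and Xrcc1, the scaffold of single-strand break repair, by 0.73. Ercc1, a subunit of the nuclease that cuts beside bulky lesions and crosslinks, read 5.15, 5.05 and 4.88 in AML Dox arrays and 4.84, 4.78 and 4.86 in AML Control arrays, above it on every array but with a difference of 0.20 that did not pass the test (adjusted p = 0.0703).

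**Figure D2:**
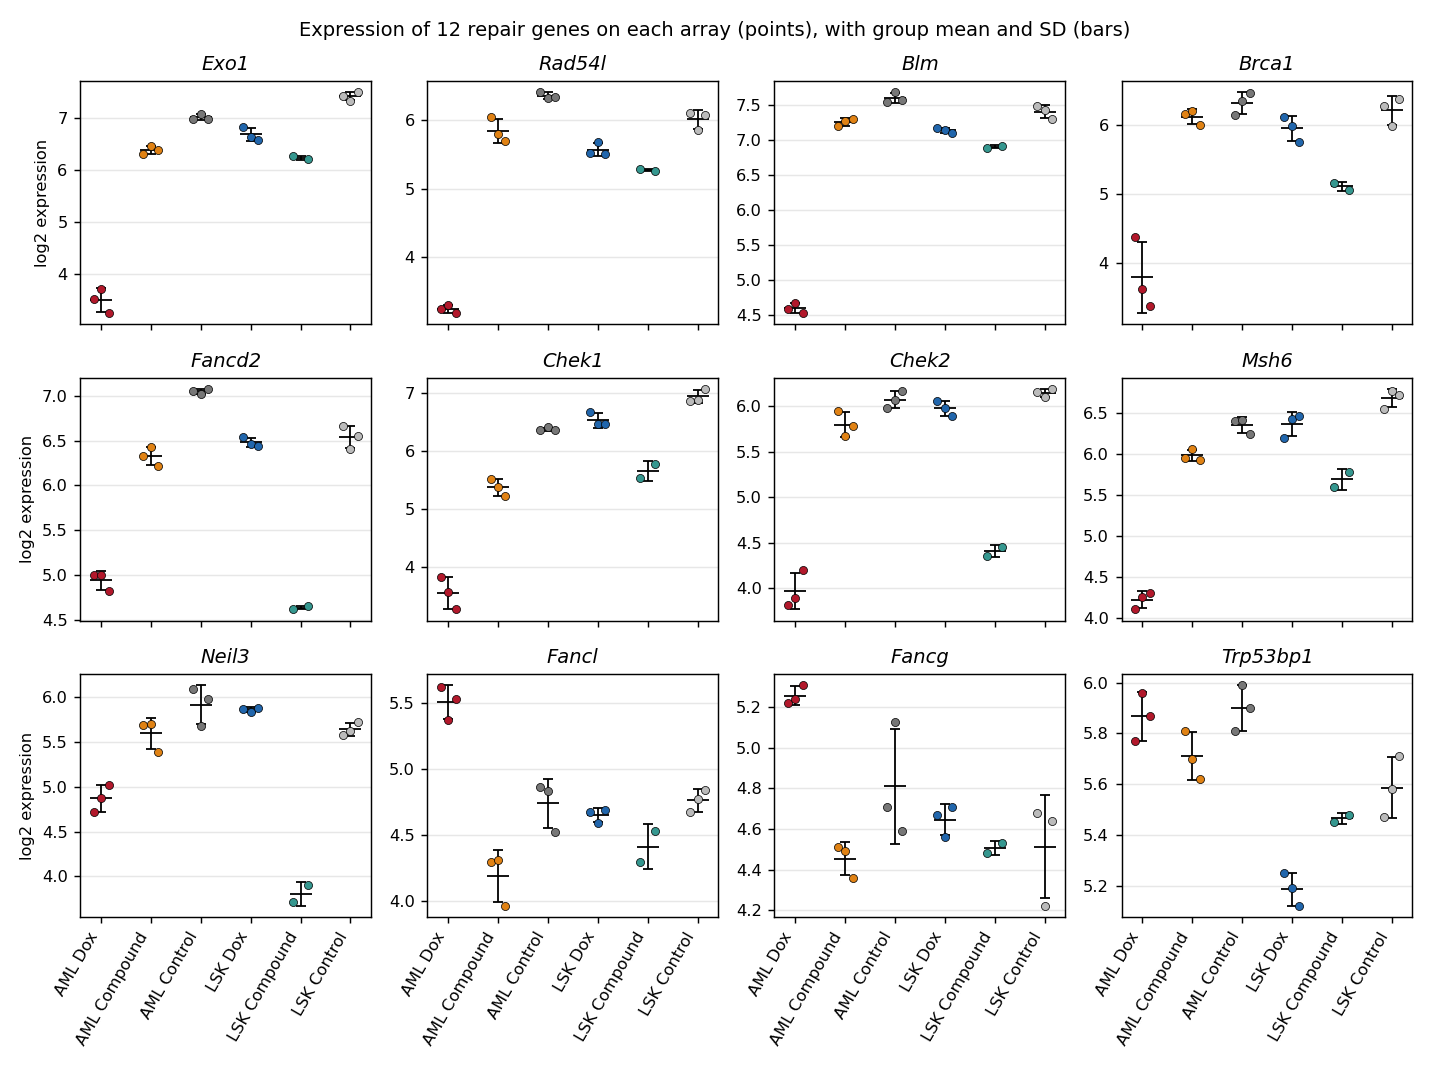
Points are the log2 expression of 12 repair genes on each array, with 3 arrays a group and 2 for LSK Compound, and bars give the group mean and SD. For Exo1, Rad54l, Blm, Brca1, Chek1 and Msh6 the 3 AML Dox arrays are the lowest of all, for Fancd2, Chek2 and Neil3 low values also appear in LSK Compound, and Fancl and Fancg are highest in AML Dox.

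Markers of the cell cycle fell alongside. Of 29 genes of S phase and replication, 28 were lower and 0 higher in AML Dox than in AML Control, with a median of -2.27, and of 23 genes of G2 and mitosis 22 were lower and 0 higher, with a median of -1.42. The replicative helicase subunit Mcm2 averaged 4.55 in AML Dox arrays and 8.23 in AML Control arrays, and the origin licensing factor Cdc6 averaged 2.78 in AML Dox arrays and 7.09 in AML Control arrays. Cell type markers moved too. The 8 AML and progenitor markers averaged 6.79 to 6.84 in AML Dox arrays and 8.78 to 8.83 in AML Control arrays, with Ctsg at 4.49 in AML Dox and 10.60 in AML Control, while Hoxa9 (9.15 in AML Dox, 7.82 in AML Control) and Meis1 (9.31 in AML Dox, 8.70 in AML Control) ran the other way. The 6 LSK markers averaged 3.70 to 3.74 in AML Dox arrays and 4.86 to 4.91 in AML Control arrays: Cd34 (3.44 in AML Dox, 8.67 in AML Control), Kit and Flt3 had lower means in AML Dox, and Mecom, Hlf and Procr higher ones. The part of cell cycle state and cell type in the fall of the repair genes was not tested.

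Other genes of each repair route were taken from lists that leave out the members. Among 16 other checkpoint genes 13 were lower and 0 higher in AML Dox against AML Control, with a median of -1.42. Tipin, which holds stalled forks together with Timeless, averaged 3.98 in AML Dox arrays and 7.49 in AML Control arrays, the deepest fall of those named at -3.51. Of 25 other recombination genes 18 were lower and 3 higher, with a median of -0.74, and Rpa2, a subunit of the single-strand binding complex, was lower by 2.62. Of 11 other Fanconi genes 7 were lower and 1 higher, with a median of -0.56. Usp1, the protease that removes ubiquitin from Fancd2, was lower by 1.87. In mismatch repair 3 of 7 other genes were lower and 1 was higher, with a median of -0.04. Excision repair was mixed. In base excision 9 of 16 other genes were lower and 3 higher, with a median of -0.53. In nucleotide excision 12 of 19 other genes were lower and 3 higher, with a median of -0.48. Among the latter, the nuclease Ercc5 averaged 5.82 in AML Dox arrays and 4.22 in AML Control arrays, a rise of 1.61. Translesion synthesis and direct reversal had 8 lower and 6 higher of 14, with a median of -0.42. Among all genes tested 25.6% were lower and 23% higher in this comparison.

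In non-homologous end joining, the route that rejoins ends without a template, 2 of 12 genes were lower and 6 were higher in AML Dox, with a median of 0.16, beside 25.6% lower and 23% higher among all genes tested. Its DNA-end-binding Ku subunits moved in opposite directions. Xrcc5 averaged 4.89 in AML Dox arrays and 3.03 in AML Control arrays, a rise of 1.86 (adjusted p = 2.02e-09), whereas Xrcc6 averaged 2.88 in AML Dox arrays and 4.51 in AML Control arrays, a fall of 1.63 (adjusted p = 1.53e-08). Rif1, which acts with Trp53bp1 at break ends, was lower by 1.20. Over all 115 other repair genes tested, 68 were lower and 22 higher, with a median of -0.51.

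**Figure D3:**
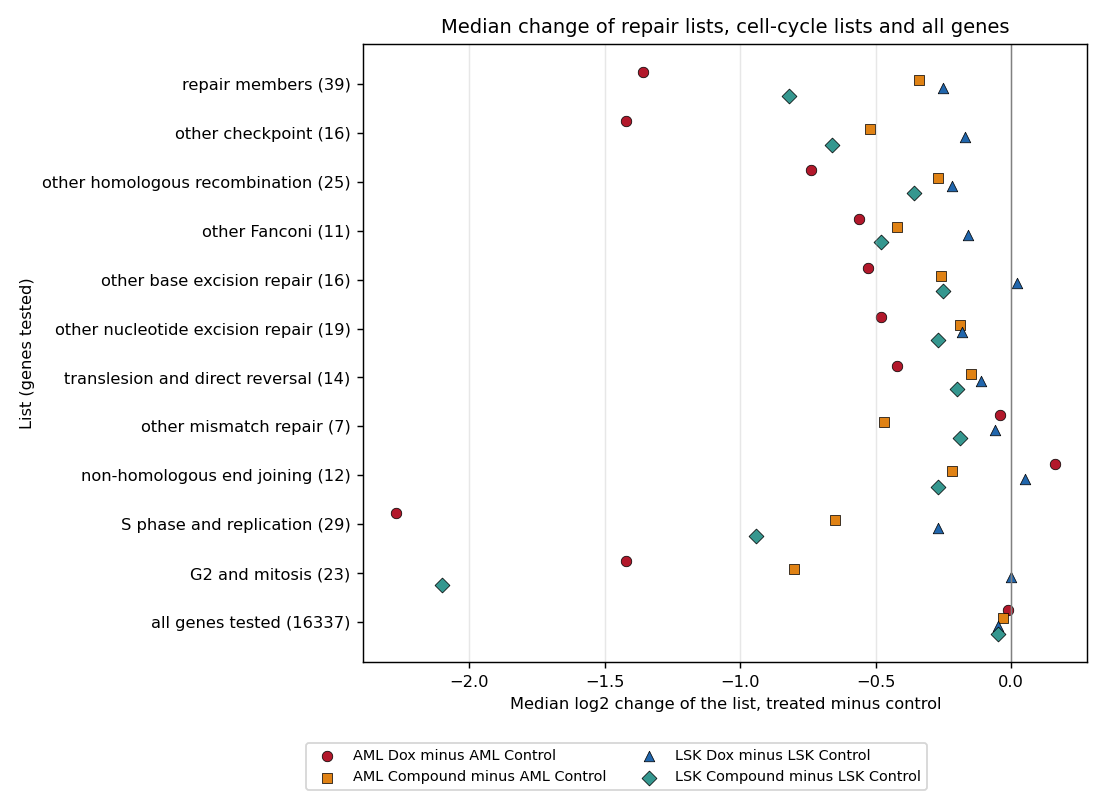
Each row is a gene list with its number of genes tested, and the 4 symbols give the median log2 change of that list in each treated group against the control of its cell type. The 39 repair genes have medians of -1.36, -0.34, -0.25 and -0.82 in AML Dox, AML Compound, LSK Dox and LSK Compound, while those of all genes tested lie between -0.05 and -0.01.

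Because most members fell together, their promoters were searched for motifs of cell-cycle transcription. RefSeq promoter windows (GRCm38.p6) running from 250 bases before to 50 bases after the start site were listed for 34 of the 39 genes, with none listed for Nbn, Rad50, Exo1, Fancd2 and Xpc. E2F-type motifs (TTGGCGC, the variant TTCGCGC, the variant TTCCCGC and the variant TTGCCGC, on either strand) were present in the windows of 21 of the 34 genes (61.8%), against 10.9% of all 27025 genes with a window. That wider set was not limited to genes tested on the arrays, as the members were. The CCAAT motif was present for 55.9% of members and 41.1% of all genes, the CHR motif (TTTGAA or TTCGAA) for 11.8% and 21.7%, and the E-box CACGTG for 2.94% and 8.09%. Members with an E2F-type motif had a median change of -1.5 in AML Dox (18 of 21 lower), and those without had -1.04 (9 of 13 lower), with overlapping ranges of -3.01 to 0.44 and -3.12 to 0.77. In AML Compound the medians were -0.34 with the motif (12 of 21 lower) and -0.27 without (6 of 13 lower). In LSK Compound they were -0.96 with it (16 of 21 lower) and -0.45 without (9 of 13 lower). In LSK Dox the order was the reverse, at -0.21 with the motif (5 of 21 lower) and -0.36 without (6 of 13 lower). The ranges overlapped in each of these groups too. These are the windows of the 4 members with a listed promoter and the smallest p in AML Dox against AML Control, each 300 bases long, 5′ to 3′ on the strand of the gene, with matches to the E2F-type and CCAAT motifs in capitals. Blm lies on the minus strand at chr7:80534949-80535248, Rad54l on the minus strand at chr4:116123641-116123940, Topbp1 on the plus strand at chr9:103305077-103305376 and Chek1 on the minus strand at chr9:36726609-36726908.
Blm: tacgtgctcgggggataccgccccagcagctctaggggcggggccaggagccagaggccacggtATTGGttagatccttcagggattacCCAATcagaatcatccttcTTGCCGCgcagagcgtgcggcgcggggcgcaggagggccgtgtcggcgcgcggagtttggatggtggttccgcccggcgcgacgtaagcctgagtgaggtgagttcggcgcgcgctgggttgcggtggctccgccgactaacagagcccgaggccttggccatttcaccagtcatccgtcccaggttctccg
Rad54l: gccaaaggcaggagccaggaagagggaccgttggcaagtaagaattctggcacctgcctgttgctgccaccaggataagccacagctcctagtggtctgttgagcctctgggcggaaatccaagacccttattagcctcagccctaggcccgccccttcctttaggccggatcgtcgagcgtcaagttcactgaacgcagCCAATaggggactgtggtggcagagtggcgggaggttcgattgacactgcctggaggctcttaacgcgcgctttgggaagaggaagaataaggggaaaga
Topbp1: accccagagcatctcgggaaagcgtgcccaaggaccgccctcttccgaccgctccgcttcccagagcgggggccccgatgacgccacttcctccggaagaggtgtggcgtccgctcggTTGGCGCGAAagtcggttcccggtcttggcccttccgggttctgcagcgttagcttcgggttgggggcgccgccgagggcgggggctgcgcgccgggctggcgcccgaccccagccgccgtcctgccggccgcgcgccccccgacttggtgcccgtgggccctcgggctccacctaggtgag
Chek1: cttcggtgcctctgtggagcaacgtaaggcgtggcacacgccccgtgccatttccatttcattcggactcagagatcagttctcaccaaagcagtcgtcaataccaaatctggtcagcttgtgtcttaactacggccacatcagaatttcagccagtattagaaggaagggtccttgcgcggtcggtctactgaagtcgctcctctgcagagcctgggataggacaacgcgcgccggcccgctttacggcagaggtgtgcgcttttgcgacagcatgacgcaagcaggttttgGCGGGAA
In the Blm window an E2F-type motif begins 142 bases before the start site, with CCAAT motifs 186 and 161 bases before it. The Topbp1 window holds overlapping E2F-type motifs on opposite strands, 132 and 129 bases before the start site. That of Chek1 holds 1, beginning 43 bases after the start site, and that of Rad54l holds a CCAAT motif 50 bases before it and no E2F-type match. The genes themselves are listed at chr7:80454993-80535148 for Blm and chr9:103305167-103350428 for Topbp1. The start sites of these windows, and their E2F-type matches, therefore lie inside the listed genes. A match is a stretch of letters and was not tested as a binding site.

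The compound cocktail also lowered repair genes in AML cells, most of them by less than 2-fold. In AML Compound 23 of the 39 were lower than in AML Control and 0 were higher, where 19.2% of all genes tested were lower and 12.8% were higher. At an unadjusted p under 0.05, 27 were lower and 0 higher, a threshold at which all genes were not counted. The median was -0.34, against -0.03 over all genes. Of the members 2, Nbn and Chek1, were called lower by at least 2-fold, beside 178 of the 16337 genes tested. This comparison and that of AML Dox share the AML Control arrays.

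Nbn, the sensor subunit that brings Atm to breaks, read 5.72, 5.60 and 5.64 in AML Compound arrays and 6.63, 6.80 and 6.65 in AML Control arrays, a fall of 2.05-fold with no overlap (log2 -1.04, SE 0.09, adjusted p = 1.50e-07). Chek1 was at 5.51, 5.37 and 5.23 in AML Compound arrays, again below all AML Control arrays (log2 -1.01, SE 0.13, adjusted p = 8.98e-06). Fancd2 read 6.33, 6.43 and 6.22 in AML Compound arrays, each lower than any AML Control array (log2 -0.72, SE 0.09, adjusted p = 7.11e-06). In break sensing and processing 5 of 6 genes were lower in AML Compound. Of the Fanconi genes 7 of 10 were lower: Fancm by 0.80, Fancf by 0.60, Fancl by 0.55 and Fancc by 0.47, with Fanci at -0.34 and Fancg at -0.36. Fancl and Fancg, which rose in AML Dox, thus fell here. Fancl read 4.29, 4.31 and 3.96 in AML Compound arrays, below every AML Control array (adjusted p = 0.00142), and the call of Fancg (adjusted p = 0.0485) was lost in most of the alternatives tried. By contrast, Brca1 (log2 -0.19), Brca2 (0.14), Palb2 (-0.09), Rad51c (-0.02), Fancb (0.06) and Parp1 (-0.10) did not pass the test. The 95% confidence interval for Brca2 ran from -0.08 to 0.35.

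The call of Atr in AML Compound (log2 -0.34, adjusted p = 0.0367) was lost with its probe sets averaged (-0.16, adjusted p = 0.481). With LSK Compound replicate 1 kept in the fit, which widens the shared spread, 5 of the 39 were called lower in AML Compound. Markers of monocytes and macrophages differed in mean level, and all 6 measured were above the filter level in AML Compound and in AML Control alike. Their mean was 6.76 to 7.01 in AML Compound arrays, against 4.89 to 4.91 in AML Control arrays, though Cx3cr1 averaged 3.61 in AML Compound and 3.63 in AML Control. Of the S phase genes 26 of 29 were lower and 0 higher, and of the G2 and mitosis genes 22 of 23 and 0. Their part in the result was not tested.

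In normal LSK cells given Dox a minority of the repair genes were lower. In LSK Dox 13 of the 39 were lower than in LSK Control and 0 were higher, where 9.93% of all genes tested were lower and 9.21% were higher. At an unadjusted p under 0.05, 18 were lower and 0 higher, a threshold at which all genes were not counted. The median was -0.25, against -0.05 over all genes. Of the members 0 were called lower by 2-fold or more, beside 69 of the 16337 genes tested. The break-processing genes were called most often, at 4 of 6, and of the Fanconi genes 1 of 10 was called, Fancb at -0.49.

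Exo1 again fell most. It read 6.83, 6.65 and 6.59 in LSK Dox arrays and 7.43, 7.34 and 7.50 in LSK Control arrays, which did not overlap, a fall of 1.66-fold (log2 -0.73, SE 0.11, adjusted p = 9.49e-05). Parp1 was at 7.91, 7.72 and 7.70 in LSK Dox arrays and at 8.22, 8.27 and 8.28 in LSK Control arrays, also without overlap (log2 -0.48, SE 0.09, adjusted p = 0.000986). Trp53bp1, which did not pass the test in AML Dox, read 5.25, 5.19 and 5.12 in LSK Dox arrays and 5.47, 5.58 and 5.71 in LSK Control arrays (log2 -0.40, SE 0.09, adjusted p = 0.00467). Each LSK Dox array was below each LSK Control array. The other 10 lower genes were Xrcc1 (-0.49), Fancb, Xrcc3 (-0.47), Atrip (-0.45), Rad54l (-0.44), Chek1 (-0.41), Nbn, Msh6 and Clspn (-0.32 each) and Blm (-0.26). Fancd2 was at 6.54, 6.46 and 6.44 in LSK Dox arrays and at 6.66, 6.41 and 6.55 in LSK Control arrays. Those values overlapped, and the 95% confidence interval of the difference ran from -0.25 to 0.12.

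The count of lower genes in LSK Dox was 7 without LSK Dox replicate 3, 7 without LSK Control replicate 3, 8 without LSK Control replicate 2 and 0 with LSK Compound replicate 1 kept in the fit. Of the S phase genes 12 of 29 were lower and 0 higher (median -0.27), and of the G2 and mitosis genes 2 of 23 were lower and 1 higher (median 0.00). The AML and progenitor markers averaged 6.65 to 6.76 in LSK Dox arrays and 7.73 to 7.88 in LSK Control arrays. Among them, Hoxa9 (5.87 in LSK Dox, 5.59 in LSK Control) and Meis1 (8.93 in LSK Dox, 8.2 in LSK Control) ran the other way. The 6 mast cell and basophil markers averaged 3.38 to 3.55 in LSK Dox arrays and 4.61 to 4.72 in LSK Control arrays. The LSK markers, which were split, averaged 6.63 to 6.70 in LSK Dox arrays and 6.27 to 6.35 in LSK Control arrays. Procr (6.57 in LSK Dox, 3.79 in LSK Control), Mecom and Hlf had higher means in LSK Dox. Cd34 (9.82 in LSK Dox, 10.1 in LSK Control), Kit (6.95 in LSK Dox, 7.71 in LSK Control) and Flt3 (6.51 in LSK Dox, 7.38 in LSK Control) had lower ones. The part of these lists was not tested.

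Most of the repair genes were lower in the LSK cells given the cocktail, in a comparison where treatment and source of cells cannot be told apart. In LSK Compound 30 of the 39 were lower than in LSK Control and 0 were higher, where 20% of all genes tested were lower and 14.2% were higher. At an unadjusted p under 0.05, 32 were lower and 0 higher, a threshold at which all genes were not counted. The median was -0.82, against -0.05 over all genes. Of the members 14 were called lower by at least 2-fold, beside 533 of the 16337 genes tested. All 39 differences were below 0. For 36 genes both LSK Compound arrays lay below all LSK Control arrays, which held for 31.7% of all genes.

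Fancd2 fell most. It read 4.62 and 4.65 in LSK Compound arrays and 6.66, 6.41 and 6.55 in LSK Control arrays, a gap with no overlap of 3.74-fold (log2 -1.90, SE 0.10, adjusted p = 9.45e-11). Neil3, the glycosylase, was at 3.71 and 3.90 in LSK Compound arrays and at 5.57, 5.62 and 5.72 in LSK Control arrays (log2 -1.83, SE 0.13, adjusted p = 7.12e-09). Chek2 was at 4.36 and 4.46 in LSK Compound arrays and at 6.16, 6.10 and 6.19 in LSK Control arrays, with both LSK Compound arrays well below (log2 -1.74, SE 0.12, adjusted p = 2.72e-09). Clspn, Xpc, Rad51ap1 and Chek1 were lower by 1.48, 1.38, 1.29 and 1.28, and Bard1, Polq, Nbn, Brip1, Exo1, Brca1 and Brca2 by 1.09 to 1.25. Brip1 read 4.44 and 4.89 in LSK Compound arrays and 5.89, 5.81 and 5.97 in LSK Control arrays, lower on both (adjusted p = 1.00e-06), and Fance was lower by 0.63. Neither passed the test in the other 3 treated groups. The 9 genes that did not pass were Palb2, Rad51c, Trp53bp1, Fancc, Fancg, Fancl, Pms2, Ercc1 and Atm, with log2 changes between -0.35 and -0.01.

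Fance lost its call without LSK Compound replicate 3 (-0.33, adjusted p = 0.225), as did Atrip (-0.31, adjusted p = 0.124), and Atr did so with its probe sets averaged (-0.34, adjusted p = 0.136). The mean level of the monocyte and macrophage markers was 6.79 and 6.96 in LSK Compound arrays, against 5.31 to 5.43 in LSK Control arrays, with Cd14, Adgre1 and Fcgr1 averaging more in LSK Compound (Cd14 at 9.69 in LSK Compound and 4.88 in LSK Control), Csf1r and Cx3cr1 less, and Ly6c2 at 8.37 in LSK Compound and 8.38 in LSK Control. The AML and progenitor markers averaged 5.09 in both LSK Compound arrays, against 7.73 to 7.88 in LSK Control arrays. All 23 G2 and mitosis genes were lower (median -2.10) and 27 of 29 S phase genes were lower (median -0.94), with 0 higher in either list. Their part in the fall was not tested.

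**Figure D4:**
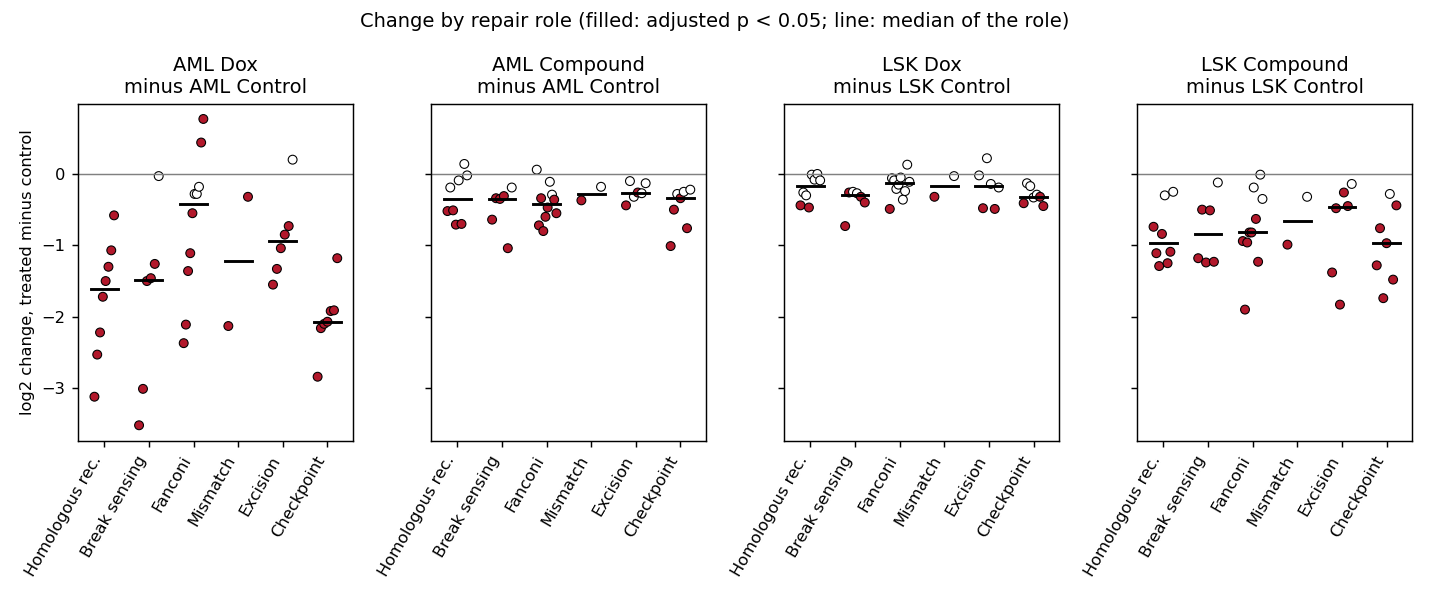
Each point is 1 repair gene, placed by role, with its log2 change in a treated group against the control of its cell type on the vertical axis, filled where the adjusted p was under 0.05, and a line marks the median of the role. The checkpoint median is -2.07 in AML Dox and the Fanconi median is -0.42, with 2 Fanconi genes filled above 0, while in LSK Dox no role has a median below -0.32.

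Across the 4 treated groups, each against the control of its cell type, 8 genes were called lower in all 4: Blm, Chek1, Clspn, Exo1, Msh6, Nbn, Rad54l and Xrcc3. That is 20.5% of the members, beside 3.25% of all genes tested, and none of the 13 LSK Dox calls it draws on held in every alternative tried. Another 12 (30.8%, beside 5.52% of all genes) were called lower in AML Dox, AML Compound and LSK Compound, among them Fancd2, Fanci, Topbp1 and Xpc. Brca1, Brca2, Chek2 and Neil3 were called lower in AML Dox and LSK Compound and in no other treated group (10.3%, beside 2.29% of all genes). Atrip, Fancb, Parp1 and Xrcc1 were called lower in all treated groups but AML Compound (10.3%, beside 1.13% of all genes). Atm, Palb2, Pms2 and Rad51c were called lower in AML Dox and no other. That share of 10.3% is close to the 7.89% of all genes with the same pattern. A missing call is no test of a difference between groups: Pms2 changed by -0.32 in AML Dox and by -0.32 in LSK Compound. Ercc1 was called in none. Across the 39 genes, changes in AML Dox and LSK Dox, which share no arrays, had a Pearson r of 0.45 (Spearman rho 0.38), and those in AML Compound and LSK Compound had 0.40 (rho 0.46). For AML Dox and LSK Compound r was 0.49 (rho 0.51), and for AML Compound and LSK Dox it was 0.13 (rho 0.06). These are correlations across genes that share an array platform and are not independent, given as a description.

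The Dox response itself differed between the cell types for most members. With the LSK response subtracted from the AML response, 29 of the 39 had a lower value and 3 a higher one at an adjusted p under 0.05, where 21.5% of all genes tested had a lower and 18.6% a higher one (40.1% in either direction). The median difference was -1.24, against 0.00 over all genes. Blm had the smallest p, with a response of -3.01 in AML cells and -0.26 in LSK cells, a difference of -2.74 (SE 0.11, adjusted p = 1.05e-11; adjusted p = 0.0906 with LSK Compound replicate 1 kept in the fit). Rad54l had responses of -3.12 in AML cells and -0.44 in LSK cells, a difference of -2.68 (SE 0.14, adjusted p = 1.51e-10). All 8 recombination genes and all 7 checkpoint genes had a lower value in AML cells, against 4 of 10 Fanconi genes. Of these, Rad51c passed narrowly (adjusted p = 0.0457). It lost its call with no filter (adjusted p = 0.0572) and without AML Control replicate 1 (adjusted p = 0.0752), among other alternatives.

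The 3 genes with a higher value were Fancl, Ercc1 and Trp53bp1. Fancl read 4.67, 4.59 and 4.69 in LSK Dox arrays and 4.67, 4.77 and 4.84 in LSK Control arrays, which overlapped, so its responses were 0.77 in AML cells and -0.11 in LSK cells (difference 0.88, SE 0.17, adjusted p = 0.000338). Ercc1 was at 5.07, 5.04 and 4.90 in LSK Dox arrays and at 5.07, 5.28 and 5.21 in LSK Control arrays, and its difference was 0.39 (adjusted p = 0.0188). Neither of its responses passed the test alone. For Trp53bp1 the difference was 0.36 (adjusted p = 0.0306). Trp53bp1 lost its call when AML Control replicate 1 or 3, AML Dox replicate 2 or 3, LSK Control replicate 2 or 3, or LSK Dox replicate 2 or 3 was left out (adjusted p between 0.0504 and 0.0851). Ercc1 lost its call without AML Dox replicate 1, LSK Control replicate 2 or LSK Dox replicate 3 (adjusted p between 0.0530 and 0.0544). Of these 3, 1 was still called with each array centred on its median, 1 without LSK Dox replicate 3, and 0 with LSK Compound replicate 1 kept in the fit.

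For the cocktail the differences lay on the other side of 0, where the LSK value is that of LSK Compound against LSK Control and carries the source of the cells with the treatment. With the LSK response subtracted from the AML response, 0 of the 39 had a lower value and 16 a higher one, where 8.37% of all genes tested had a lower and 8.69% a higher one. At an unadjusted p under 0.05 the counts were 0 and 18, a threshold at which all genes were not counted. The median difference was 0.26, against 0.02 over all genes. Chek2 had responses of -0.28 in AML cells, at 5.95, 5.67 and 5.78 in AML Compound arrays, and of -1.74 in LSK cells (difference 1.47, SE 0.16, adjusted p = 2.70e-06). Fancd2 had responses of -0.72 in AML cells and -1.90 in LSK cells (difference 1.18, SE 0.13, adjusted p = 4.90e-06). Neil3 and Brca2 differed by 1.52 and 1.23. The difference was also called higher for all 23 G2 and mitosis genes and for 7 of 29 S phase genes, and its relation to the repair genes was not tested.

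**Figure D5:**
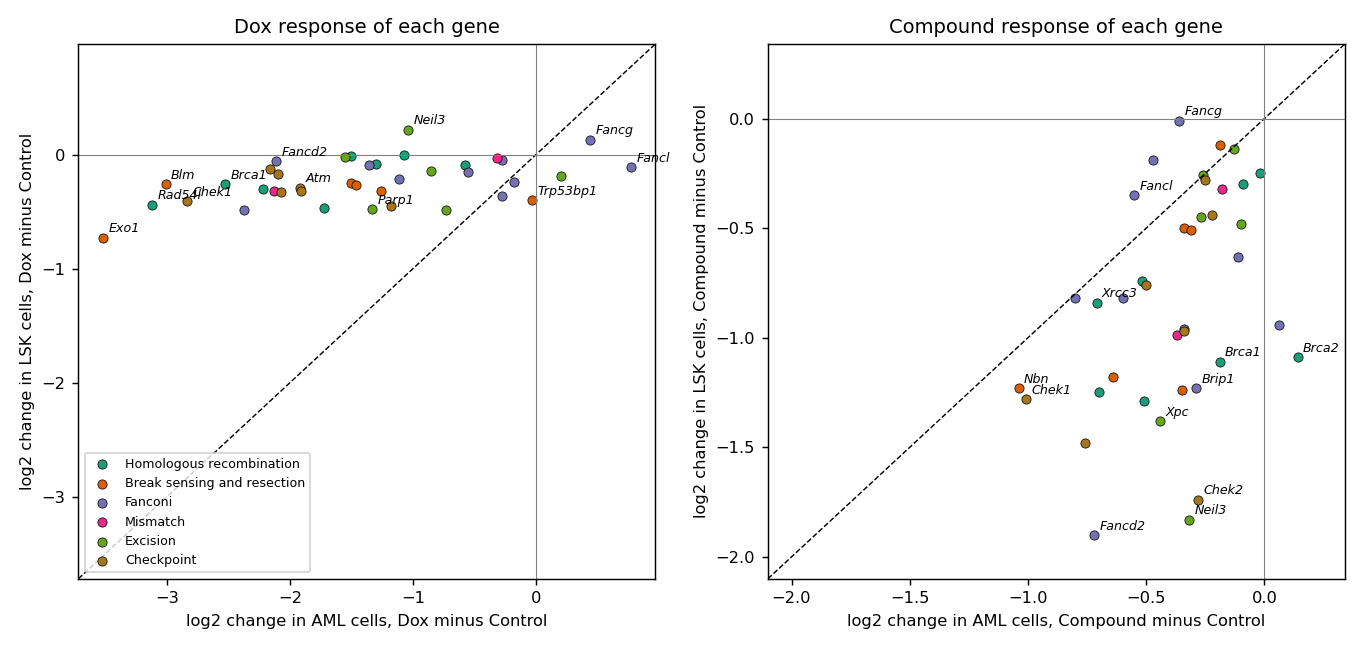
Each point is 1 repair gene, with its log2 change in AML cells on the horizontal axis and in LSK cells on the vertical axis, for Dox on the left and the cocktail on the right, coloured by role, and the dashed line marks equal change. For Dox most genes lie above the line, Exo1 at -3.52 and -0.73, and for the cocktail most lie below it, Fancd2 at -0.72 and -1.90.

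Within AML cells the treatments differed. In AML Dox 28 of the 39 genes were lower than in AML Compound and 3 were higher, where 24.7% of all genes tested were lower and 23% were higher (47.7% in either direction), and the median was -1.11, against -0.01 over all genes. Blm read 7.20, 7.27 and 7.31 in AML Compound arrays, all far above its AML Dox arrays (log2 -2.67, SE 0.08, adjusted p = 4.15e-14), and Exo1 differed by -2.88 (SE 0.11, adjusted p = 5.59e-13). Nbn, at 5.56, 5.46 and 5.27 in AML Dox arrays, lay just below its AML Compound arrays, with a log2 difference of -0.23 that missed the threshold (adjusted p = 0.05 after rounding, 95% confidence interval -0.42 to -0.03). The higher genes were Fancl (1.32, adjusted p = 3.57e-08), Fancg (0.80, adjusted p = 6.14e-05) and Ercc1 (0.33, adjusted p = 0.00434). Fancg read 4.51, 4.49 and 4.36 and Ercc1 4.70, 4.70 and 4.69 in AML Compound arrays, all below the AML Dox arrays.

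Between the untreated cell types, whose Xist levels also differed, changes were called in both directions. Cell type and source of the cells cannot be told apart here. In AML Control 6 of the 39 were lower than in LSK Control and 9 were higher, which is 15.4% and 23.1% of the members, beside 14.2% lower and 15.4% higher among all genes tested (29.6% in either direction), and the median was 0.09, against 0.00 over all genes. Xpc had the largest difference, at 6.11, 6.71 and 6.30 in AML Control arrays and 5.43, 5.52 and 5.43 in LSK Control arrays, higher on every AML array (log2 0.92, SE 0.13, adjusted p = 4.31e-05). Fancd2 was higher by 0.51 in AML Control (SE 0.09, adjusted p = 0.000268), with every AML Control array above every LSK Control array. Chek1 read 6.86, 6.89 and 7.08 in LSK Control arrays and was lower by 0.56 in AML Control (adjusted p = 0.00251). Exo1, Nbn and Ercc1 were lower in AML Control by 0.40, 0.37 and 0.36, and no AML Control array of the 3 genes overlapped with LSK Control. Msh6 (-0.33) and Parp1 (-0.27) were the other lower genes, and the other higher ones were Fancm (0.59), Xrcc3 and Fancb (0.42 each), Topbp1 (0.40), Rad54l (0.35), Trp53bp1 (0.32) and Clspn (0.28). With LSK Compound replicate 1 kept in the fit, 0 were called lower and 2 higher. Only 2 of the 15 calls held in every alternative tried, and those of Clspn, Fancb, Parp1 and Msh6 were among those lost when single arrays were left out.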

How the data were processed

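Mouse RNA was measured on 1-colour Affymetrix whole-transcript arrays. The values are log2 expression of probe sets, which the authors computed by RMA and deposited in that form, per the submitters' processing notes. No version, build or later scaling was stated in the sources used here, and the values were used unscaled. Of 41345 probe sets 23521 named 1 gene, 1814 several, and 16010 were not listed. Each of 22180 genes kept its brightest probe set, by mean over the arrays used. Genes above the 40th percentile of their own array on at least 3 arrays were tested (16337).

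Groups were compared with limma 3.58.1 in R 4.3.3 (a mean for each title group fitted by lmFit on 17 arrays, then contrasts and eBayes, 11 residual and 5.26 prior degrees of freedom), p-values adjusted by Benjamini-Hochberg over every gene tested, and a threshold of 0.05, in 8 comparisons. The steps were tested on simulated data. LSK Compound replicate 1 was left out. Precision is limited by the number of arrays, which have no read depth: the median SE was 0.12 log2 (0.14 for LSK Compound).

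Members and lists were chosen with earlier results of these data known. Values on every array are given for the 3 genes of each role with the smallest p in AML Dox against AML Control, the 2 with the smallest p in each other comparison and those called against the majority, at most 4 a comparison. Brca1, Brip1 and Neil3 were added after their values were seen. Promoters follow p rank among members, and Topbp1 and Chek1 were next in rank after Exo1 and Fancd2, which had none listed. Context lists name up to 3 genes each. The alternatives were all 18 arrays, a replicate block, the compared arrays alone, median centring, quantile normalization, no filter and a 60th percentile filter, a floor, array weights, trended and robust priors, other probe set rules, each array left out, and, chosen after seeing the data, all LSK Compound arrays left out.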

Additional observations from a re-analysis of the deposited data

Results flagged for a closer look

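The genes below responded differently in AML and LSK cells, by a test of the difference itself (limma contrast of the AML response minus the LSK response, adjusted over all genes tested). Values are differences of log2 changes. For Dox there were 32. In homologous recombination they were Rad54l at -2.68, Brca1 at -2.26, Rad51ap1 at -1.91, Palb2 at -1.49, Xrcc3 at -1.24, Bard1 at -1.22, Brca2 at -1.07 and Rad51c at -0.49. In break sensing and processing they were Exo1 at -2.79, Blm at -2.74, Polq at -1.25, Rad50 at -1.18, Nbn at -0.94 and Trp53bp1 at 0.36. The Fanconi genes were Fancd2 at -2.05, Fancb at -1.87, Fanci at -1.27, Fancm at -0.90 and Fancl at 0.88. Mismatch repair had Msh6 at -1.81, and excision repair had Xpc at -1.53, Neil3 at -1.26, Parp1 at -0.84, Ung at -0.72 and Ercc1 at 0.39. Checkpoint genes were Chek1 at -2.43, Topbp1 at -2.04, Chek2 at -1.93, Atr at -1.75, Atm at -1.63, Clspn at -1.59 and Atrip at -0.73.

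For the cocktail, where the LSK value carries the source of the cells with the treatment, there were 16, all above 0. They were Brca2 at 1.23, Brca1 at 0.91, Rad51ap1 at 0.79 and Bard1 at 0.55 in recombination, Polq at 0.89 and Exo1 at 0.55 in break processing, and Fancd2 at 1.18, Fancb at 1.0, Brip1 at 0.93 and Fanci at 0.62 in the Fanconi pathway. Msh6 was at 0.62, Neil3 at 1.52 and Xpc at 0.94, and the checkpoint genes Chek2, Clspn and Atr were at 1.47, 0.72 and 0.64. Of the called differences, 20 of 32 for Dox and 7 of 16 for the cocktail passed the test in every alternative tried.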

How the results depend on the processing

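Of 194 called values of single genes, 115 passed the test in every alternative in which the gene was tested and 0 changed sign. In AML Dox against AML Control 31 of 34 did so, in AML Compound 5 of 23, in LSK Dox 0 of 13 and in LSK Compound 23 of 30. In AML Dox against AML Compound 27 of 31 did so, and in AML Control against LSK Control 2 of 15. Keeping LSK Compound replicate 1, which was left out for standing apart, moved the counts most: 1 gene was then higher in AML Dox, 5 lower in AML Compound, 0 lower in LSK Dox, 0 had a higher Dox response and 7 a higher cocktail response in AML than in LSK cells, and 0 were lower and 2 higher in AML Control than in LSK Control. The counts of lower genes were then 30 in AML Dox, 26 in LSK Compound and 20 for the Dox response, where Blm (adjusted p = 0.0906) and Topbp1 (adjusted p = 0.209) were among those that lost their call. With each array centred on its median 1 gene had a higher Dox response in AML cells. With each array left out in turn, 31 to 33 genes were lower and 1 to 3 higher in AML Dox (1 without AML Control replicate 3), and 19 to 25 were lower in AML Compound. In LSK Dox 7 to 16 were lower (7 without LSK Dox or LSK Control replicate 3, 8 without LSK Control replicate 2), and in LSK Compound 27 to 32. The Dox response was lower in AML cells for 28 to 29 and higher for 1 to 4 (1 without LSK Dox replicate 3), and the cocktail response higher for 13 to 16. AML Control had 4 to 7 lower and 6 to 9 higher than LSK Control, and AML Dox 27 to 29 lower and 3 higher than AML Compound. Same-numbered arrays showed no strong shared shift: their deviations from the group means correlated at -0.06 to 0.10. With so few arrays a group, this cannot tell whether same-numbered arrays share an animal or culture. With replicate number as a block the lower genes numbered 33 in AML Dox, 21 in AML Compound, 13 in LSK Dox and 29 in LSK Compound, and the cocktail response was higher in AML cells for 15.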
